A study of Homo sapiens with 3 samples.

Results

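The 80 genes described here encode carriers that move ions, sugars, phosphate, organic anions and organic cations across membranes of the renal tubule and of other cells. They are the protein-coding genes of RefSeq (GRCh38.p14) whose symbols are SLC4A, SLC5A, SLC9A, SLC12A, SLC13A, SLC17A, SLC22A, SLC34A or SLC47A followed by digits, out of 19974 protein-coding genes on chromosomes 1 to 22 and X. That rule uses no measured value, but it was chosen with earlier results of these data known. Lactylation of lysine 12 of histone H4 (H4K12la) had been profiled by CUT&Tag, in which an antibody brings a transposase to chromatin that carries the mark. The cells were untreated 786-O (1 library, replicate 2) and Caki-1 (2 libraries, replicates 1 and 2), both established lines of human renal carcinoma grown in culture. No other genotype is given in the labels, and no normal kidney cells were included among the samples used here. As background, 786-O is known for the loss of the VHL tumour suppressor, whose product degrades hypoxia-inducible factors, and Caki-1 for its retention.

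Filtrate that enters the proximal tubule is reabsorbed by apical carriers driven by the sodium gradient, among them SLC5A2 and SLC5A1 for glucose, SLC34A1 and SLC34A3 for phosphate and SLC9A3 for proton exchange, while SLC4A4 returns bicarbonate to the blood on the basolateral side. Organic anions are taken up from the blood by SLC22A6 and SLC22A8, urate is recovered by SLC22A12, and organic cations pass through SLC22A2 and then SLC47A1. The thick ascending limb and the distal convoluted tubule use SLC12A1 and SLC12A3, the targets of loop and thiazide diuretics. Other members of the same families serve all cells, for instance SLC12A2, which sets cell volume, and the organelle exchangers SLC9A7 and SLC9A8. Histone lactylation uses a lactyl group derived from the lactate of glycolysis.

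Each library had its own deposited list, of 62777 peaks for 786-O, 60760 for Caki-1 replicate 1 and 67839 for Caki-1 replicate 2. Each peak has a strength, which is a summit signal in the first 2 lists and a score in the third, with list medians of 21, 21 and 48. Strengths are given here as values in the order 786-O, Caki-1 replicate 1, Caki-1 replicate 2, and were compared only as percentile ranks within a list. The sources used here give no read depth, so a missing peak was one not called and cannot be read as absence of the mark. In bulk cells a mark in few cells and a weak mark in all of them cannot be told apart. Of 10 markers of the renal tubule lineage, 8 had a peak in the gene span extended by 5 kb in all 3 lists, against 65.4% of all protein-coding genes. Only 2, CDH16 among them, had one at a gene start in each, against 45.8% of all protein-coding genes. PAX8, a factor of the nephron lineage, had a start peak in both Caki-1 lists (53 and 140) and none in 786-O, where 6 peaks lay in its extended span. Of 9 markers of other cell types, PECAM1 and CDH5 had a peak in the extended span of all 3 lists and none of the 9 had a start peak in all 3. CD3E, NPHS1, ALB and MYOD1 had no peak in any list.

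Promoter sequences of 6 members show that CpG content differs among these genes. The lines below give the 250 bases before the annotated start on the coding strand, from RefSeq GRCh38.p14, in lower case with every CpG in capitals. SLC9A8 (chr20:49812578-49812827, plus strand), SLC22A5 (chr5:132369460-132369709, plus strand) and SLC5A6 (chr2:27212269-27212518, minus strand) are shown because they had strong start peaks in all 3 lists. SLC12A1 (chr15:48206052-48206301, plus strand), SLC34A1 (chr5:177384184-177384433, plus strand) and SLC22A6 (chr11:62984968-62985217, minus strand) are shown because they are defining carriers of the tubule and had no start peak. These 6 were picked after their peaks were seen, and the first 3 are not the upper end of CpG content. The observed over expected CpG ratio reached 1.04 in SLC5A3. SLC9A3, with a ratio of 0.968, had no start peak in any list. SLC4A4 and SLC12A8 had start peaks in all 3 lists with observed over expected CpG ratios of 0.0848 and 0.139. The ratio of SLC4A4 is for the promoter nearest its 5′ end, and its start peaks shared by all 3 lists lay at starts farther downstream.
SLC9A8: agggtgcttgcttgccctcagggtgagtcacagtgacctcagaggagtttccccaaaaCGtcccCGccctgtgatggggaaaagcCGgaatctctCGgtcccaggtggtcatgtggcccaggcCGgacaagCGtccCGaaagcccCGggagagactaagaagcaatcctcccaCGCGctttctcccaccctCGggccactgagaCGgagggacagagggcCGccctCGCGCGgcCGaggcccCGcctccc
SLC22A5: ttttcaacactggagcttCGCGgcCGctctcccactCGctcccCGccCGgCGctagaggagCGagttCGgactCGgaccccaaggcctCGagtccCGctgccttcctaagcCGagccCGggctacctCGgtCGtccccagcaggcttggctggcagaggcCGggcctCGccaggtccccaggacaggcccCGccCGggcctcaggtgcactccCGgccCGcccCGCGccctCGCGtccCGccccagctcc
SLC5A6: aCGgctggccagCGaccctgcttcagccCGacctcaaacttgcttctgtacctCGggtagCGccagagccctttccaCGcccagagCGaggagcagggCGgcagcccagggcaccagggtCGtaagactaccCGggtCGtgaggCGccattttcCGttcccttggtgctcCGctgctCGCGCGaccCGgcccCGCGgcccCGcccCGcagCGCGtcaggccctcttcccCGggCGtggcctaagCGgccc
SLC12A1: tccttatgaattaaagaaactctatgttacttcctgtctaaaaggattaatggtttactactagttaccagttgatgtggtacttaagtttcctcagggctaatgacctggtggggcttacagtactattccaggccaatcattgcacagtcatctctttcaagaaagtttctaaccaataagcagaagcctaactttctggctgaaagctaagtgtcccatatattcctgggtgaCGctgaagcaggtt
SLC34A1: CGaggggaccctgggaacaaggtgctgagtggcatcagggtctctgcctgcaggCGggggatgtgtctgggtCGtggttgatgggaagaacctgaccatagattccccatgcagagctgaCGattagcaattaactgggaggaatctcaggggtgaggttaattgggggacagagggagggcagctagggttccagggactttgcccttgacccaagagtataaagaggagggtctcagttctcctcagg
SLC22A6: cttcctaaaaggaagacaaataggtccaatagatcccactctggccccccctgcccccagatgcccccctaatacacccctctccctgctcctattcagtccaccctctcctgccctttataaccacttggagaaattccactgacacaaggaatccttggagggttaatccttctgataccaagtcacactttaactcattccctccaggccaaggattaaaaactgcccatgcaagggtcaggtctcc
The first 3 hold 18, 27 and 27 CpG in these bases and the last 3 hold 1, 4 and 0.

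A lower share of transporter genes than of all protein-coding genes carried H4K12la at the start. A start peak is a peak within 1 kb of an annotated start, taken from the RefSeq promoter table and from the 5′ end of the gene. For 17 members with no strand in the tables used here, either annotated end was counted, and the same was done for all genes. In 786-O, 23 of 80 members had a start peak (28.8%), against 53.7% of all protein-coding genes. Caki-1 replicate 1 had 28 (35%, against 56.4%) and replicate 2 had 31 (38.8%, against 58.7%). In all 3 lists 16 members had a start peak (20%), against 45.8% of all genes, and 40 members (50%) had none in any list, against 34.1%. Among the 63 members with a strand the count in all 3 lists was 12 (19%), against 48.7% of all genes with a strand. Their counts per list were 15 (23.8%, against 56.4%), 24 (38.1%, against 59.1%) and 25 (39.7%, against 61.4%).

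Over the whole gene span extended by 5 kb the members stood closer to other genes. There were 57 members with a peak in 786-O (71.2%), against 76.2% of all protein-coding genes. Caki-1 replicate 1 had 49 (61.2%, against 73.7%) and replicate 2 had 53 (66.2%, against 76.1%). A peak in all 3 lists was found at 42 members (52.5%), against 65.4% of all genes, and none in any list at 17 (21.2%), against 15.2%. A peak in the extended span of all 3 lists with no start peak in any was found at 11 members (13.8%), against 8.46% of all genes. Long genes hold more peaks, so the members were also read within classes of gene length. Of 19 members under 20 kb, 9 had a peak in all 3 lists (47.4%), close to the 48.5% of all genes of that length. Of 30 members of 20 to 60 kb, 12 had one (40%, against 75.4%), and of 31 members over 60 kb, 21 had one (67.7%, against 83.3%). Start peaks in all 3 lists were fewer among members than among all genes in each class, at 10.5% against 34.1%, 13.3% against 55.3% and 32.3% against 55.4%. These shares are descriptions of 80 genes, and no test was made over them.

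**Figure D1:**
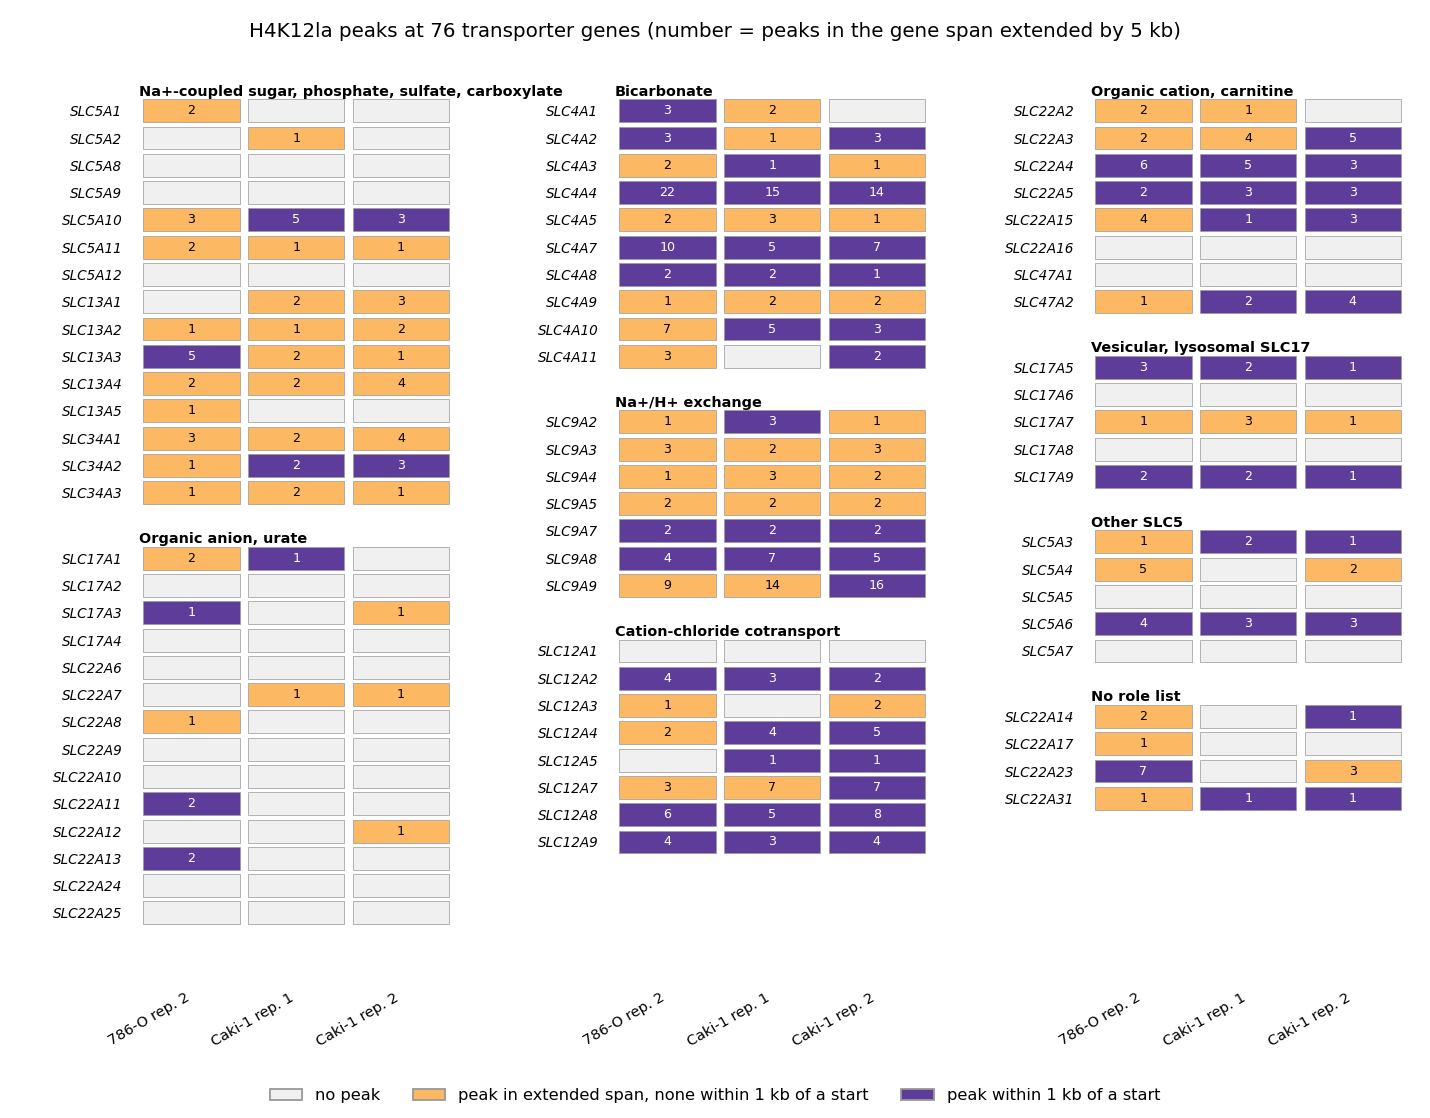
Each row is 1 of 76 transporter genes and each column 1 library. Purple cells have a peak within 1 kb of a start, orange cells a peak elsewhere in the gene span extended by 5 kb, pale cells none, and the number counts the peaks in the extended span. All sodium-proton exchangers shown have a peak in every library, and 7 of 14 organic anion carriers have none.

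The role lists differed in how many genes carried the mark. All 9 sodium-proton exchanger genes had a peak in the extended span of every list, as did 8 of 10 bicarbonate carriers and 6 of 9 cation-chloride cotransporters, against 65.4% of all genes. Of 15 sodium-coupled carriers of sugar, phosphate, sulfate and carboxylates, 8 did. None of 14 organic anion and urate carriers did. At the starts, 4 exchangers, 4 cation-chloride cotransporters, 3 bicarbonate carriers, 2 organic cation and carnitine carriers, 2 SLC17 carriers of vesicles and lysosomes and SLC5A6 were marked in all 3 lists, and no gene of the sodium-coupled or organic anion lists was. The highest share marked at the starts in all 3 lists was 44.4%, for exchangers and for cation-chloride cotransporters, against 45.8% of all genes. Of 17 textbook carriers of tubular transport, 3 had a start peak in every list (17.6%, against 45.8%), SLC4A4 and SLC12A2 among them. Of these 17, 13 had none in any list, against 34.1% of all genes.

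**Figure D2:**
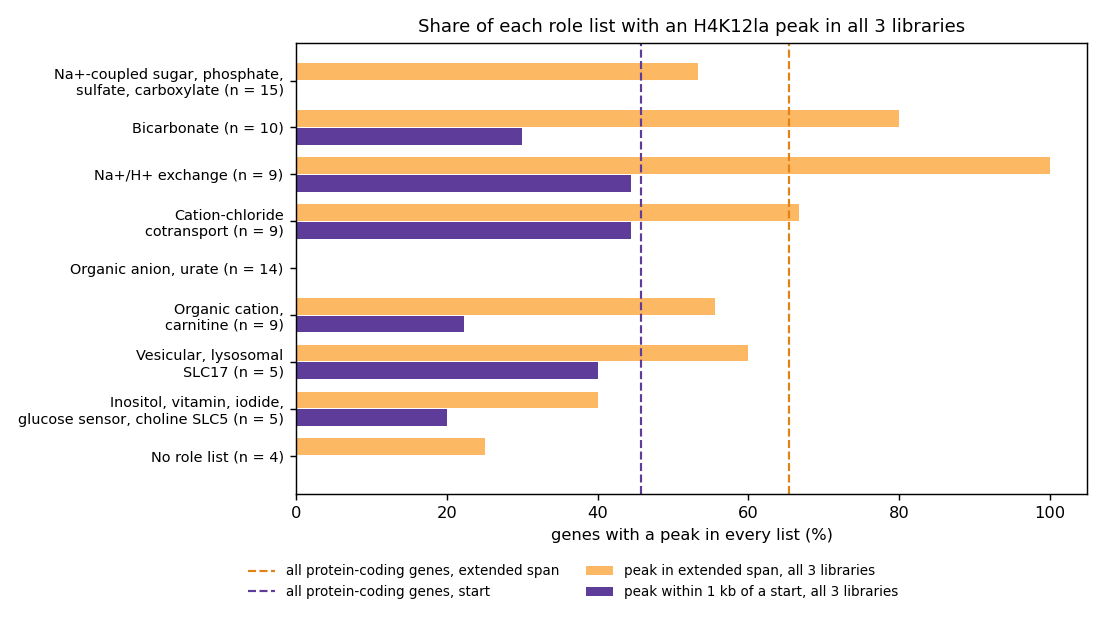
Bars give the percentage of genes of each role list with an H4K12la peak in all 3 libraries, in the extended gene span (orange) or within 1 kb of a start (purple), and dashed lines the same shares of all protein-coding genes (65.4% and 45.8%). Organic anion carriers have a bar of length 0 on both measures, and no list exceeds the dashed line for starts.

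Among the sodium-proton exchangers, 4 had a start peak in every list. SLC9A8, an exchanger of the Golgi, had values of 41, 60 and 192 at its start, at percentile ranks of 85.5, 96.7 and 94.4. Its peak lay on chromosome 20 from 49812027 to 49813311 in 786-O, across the CpG-rich promoter printed above. SLC9A7, the exchanger of the trans-Golgi network, had weaker start peaks of 16, 23 and 49 (ranks 26.3, 56.8 and 51.8).

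SLC9A3, the apical exchanger of the proximal tubule, had 3, 2 and 3 peaks in its extended span and none at its start, although its promoter is CpG-rich. SLC9A4 and SLC9A5, known from stomach and brain, had none at their starts either, and SLC9A2 had a start peak of 18 in Caki-1 replicate 1 alone. SLC9A9, an endosomal exchanger and the longest member at 583 kb, held 9, 14 and 16 peaks, which is 1.52, 2.36 and 2.7 per 100 kb, with a start peak in Caki-1 replicate 2 only (60).

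Of the bicarbonate carriers, SLC4A4, SLC4A7 and SLC4A8 had a start peak in every list. SLC4A4, the electrogenic sodium-bicarbonate cotransporter of the basolateral membrane, spans 509 kb on chromosome 4 and held 22 peaks in 786-O, 15 in Caki-1 replicate 1 and 14 in replicate 2. Per 100 kb that is 4.24, 2.89 and 2.7, against 3.46, 3.4 and 3.79 over all protein-coding genes. The shorter SLC4A2, of 18.3 kb, had 10.6, 3.53 and 10.6 from 3, 1 and 3 peaks. Of the 22 SLC4A4 peaks of 786-O, 5 overlapped a peak in both Caki-1 lists and 11 in neither. Of the 15 SLC4A4 peaks of Caki-1 replicate 1, 9 recurred in replicate 2. No peak lay at its most upstream start (position 71062660), and the marked starts lay inside the gene. Near position 71339020, the start farthest downstream, the values were 50, 17 and 127 (ranks 91.6, 33.7 and 86.8). Near position 71187259 they were 42, 20 and 92, the last from a peak of 1843 bp that also covers the start at 71186765, where Caki-1 replicate 1 had a further peak of 25.

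SLC4A7, an electroneutral sodium-bicarbonate cotransporter found in many tissues, had values of 61, 31 and 93 at its start on chromosome 3 (27484159 to 27484763), at ranks of 95.7, 76.2 and 78.4. SLC4A8, a sodium-driven chloride-bicarbonate exchanger, was faint in 786-O (14, rank 15.4) and strong in Caki-1 (33 and 132, ranks 79.4 and 87.6), with overlapping peaks at 51424761 to 51425213 on chromosome 12. SLC4A2, a widely expressed anion exchanger, had a start peak of 52 in 786-O and, at another annotated start, 1 of 85 in Caki-1 replicate 2, with none in replicate 1. The Caki-1 peak overlapped another 786-O peak (51) that lay just over 1 kb from a start. SLC4A1, the anion exchanger of red cells and of acid-secreting cells of the collecting duct, had a faint end peak in 786-O (14), an intragenic peak in 786-O (25) overlapping 1 in Caki-1 replicate 1 (22), and overlapping flank peaks in the same lists (13 and 16). SLC4A9, an exchanger of intercalated cells, had no start peak, but an upstream peak in both Caki-1 lists reached 36 and 192 (ranks 83.5 and 94.4) and overlapped none of 786-O. SLC4A3 and SLC4A11 had a start peak in a single Caki-1 list each, SLC4A5 in none, and the Caki-1 start peaks of SLC4A10 (13 and 19) were faint and did not overlap each other.

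Among the SLC12A genes, listed here by family as cation-chloride cotransporters, SLC12A2, SLC12A8 and SLC12A9 were marked at the start in every list. The carriers of the distal nephron were marked there in none. SLC12A2, the sodium-potassium-chloride cotransporter of most cells, had 41, 42 and 47 at its start on chromosome 5. Its ranks were 85.5, 89.3 and 48.7, and its peaks were 748, 1907 and 1810 bp wide. SLC12A9 had 30, 22 and 116 at a downstream start, and its upstream start, which lies near that of EPHB4, had a peak in Caki-1 only (22 and 89). SLC12A8 had start peaks of 26, 24 and 86, the last overlapping that of 786-O and not that of Caki-1 replicate 1. A further start peak of Caki-1 replicate 2 (36) overlapped those of both other lists.

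SLC12A1, the cotransporter of the thick ascending limb, had no peak in 97.8 kb of gene or within 5 kb of it in any list. SLC12A3, the cotransporter of the distal convoluted tubule, had no start peak, and its intragenic peaks were weak (15 in 786-O; 36 and 28 in the list of Caki-1 replicate 2, none in that of replicate 1). SLC12A4, a potassium-chloride cotransporter, was marked at 3 of its 4 annotated starts in both Caki-1 lists, by peaks of 35 and 29 in replicate 1 and of 34 and 54 in replicate 2, and at none in 786-O. SLC12A5, the neuronal potassium-chloride cotransporter, had a start peak in both Caki-1 lists (20 and 40) and no peak in 786-O. SLC12A7 had a start peak in Caki-1 replicate 2 alone (44).

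Of the 15 sodium-coupled carriers of sugar, phosphate, sulfate and carboxylates, which include carriers outside the brush border, 12 had no start peak in any list, against 40 of all 80 members and 34.1% of all genes. SLC5A2, the main glucose carrier of the early proximal tubule and the target of gliflozins, had a single intragenic peak in Caki-1 replicate 1 (20, rank 46.3). SLC5A1, the glucose carrier of intestine and late proximal tubule, had 2 intragenic peaks in 786-O (17 and 12) and none in Caki-1. SLC5A8 and SLC5A12, sodium-coupled carriers of lactate and other monocarboxylates, and SLC5A9 had no peak in any list. SLC34A1, the main renal phosphate carrier, had no start peak, but a peak upstream of the gene on chromosome 5 (177379082 to 177379628) overlapped in all 3 lists, with values of 41, 30 and 151. SLC34A3, another renal phosphate carrier, had flanking peaks that lay near the starts of its neighbours, RNF224 in 786-O (42) and TUBB4B in Caki-1 (39 and 46). SLC34A2, the phosphate carrier of lung and intestine, had a start peak in both Caki-1 lists (20 and 53) and none in 786-O, and a flanking peak in every list (38, 29 and 125).

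SLC13A3, a dicarboxylate carrier of the basolateral membrane, had the strongest peaks of this list in Caki-1, and they lay near the start of a neighbour. This flanking peak of chromosome 20 (46689124 to 46689765 in 786-O), close to the start of TP53RK, had values of 52, 67 and 318 (ranks 92.6, 97.9 and 98.8). At the ends of SLC13A3 itself, 786-O had 3 peaks (24, 31 and 20) and Caki-1 none. SLC13A2, the citrate carrier of the apical membrane, had a flanking peak in all 3 lists (23, 21 and 71). SLC13A4, a sulfate carrier, had an intragenic peak on chromosome 7 (135714352 to 135715603) in all 3, with values of 57, 37 and 84. SLC13A1, the sulfate carrier of the kidney, had only weak intragenic peaks in Caki-1 (at most 19 and 25), which did not recur between its replicates, and SLC13A5 a single weak one in 786-O (14). SLC5A10 had a start peak in both Caki-1 lists (13 and 33), and SLC5A11 none.

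Organic anion carriers formed the least marked group. A cluster of 6 SLC22A genes on chromosome 11, from SLC22A6 at 62976597 to SLC22A9 at 63410294, spans 434 kb and held 1 peak in 786-O and none in Caki-1. That peak lay in SLC22A8, the basolateral carrier of drugs and conjugates, with a value of 13, where the lowest in the list is 10. SLC22A6, the basolateral carrier of para-aminohippurate, and its neighbours SLC22A24, SLC22A25, SLC22A10 and SLC22A9 had no peak in any list. SLC22A12, the apical urate exchanger, had 1 weak intragenic peak in Caki-1 replicate 2 (17, rank 2.06). SLC22A11, an apical exchanger of organic anions and urate, had an end peak of 29 and an intragenic peak of 38 in 786-O and none in Caki-1, and SLC22A13 had an end peak of 23 in 786-O only. Of the SLC17 carriers clustered on chromosome 6, SLC17A3, an apical carrier of urate, had a start peak in 786-O (16) and SLC17A1 in Caki-1 replicate 1 (20), and SLC17A2 and SLC17A4 had no peak. SLC22A7 had a flanking peak in Caki-1 near the start of CRIP3 (20 and 53) and none at its own start.

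**Figure D3:**
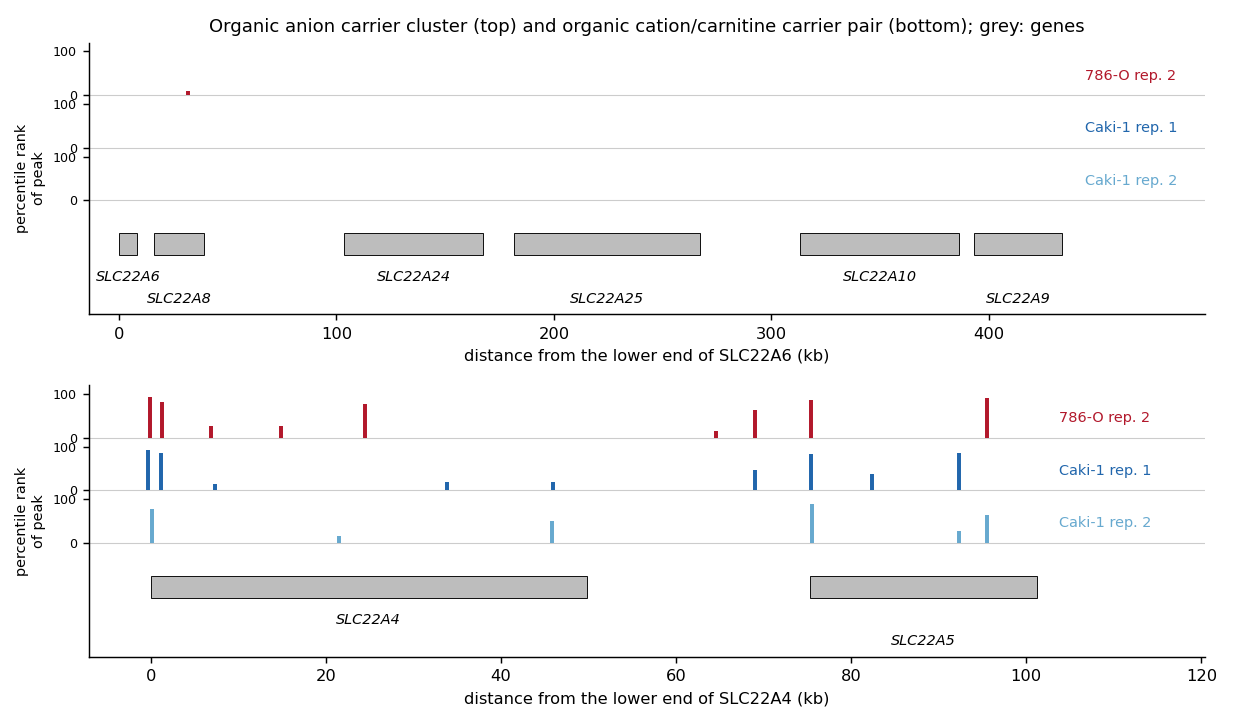
Peaks at the chromosome 11 cluster of organic anion carriers (top) and at the chromosome 5 pair SLC22A4 and SLC22A5 (bottom), with distance in kb from the lower end of the first gene on the x axis. Vertical lines give each peak's percentile rank within its list (0 to 100) per library and grey boxes the genes. The 434 kb cluster holds 1 peak in all, and the pair of 101 kb holds 10, 9 and 6.

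Of 9 organic cation and carnitine carriers, 5 had a peak in the extended span of every list (55.6%, against 65.4% of all genes). Start peaks in every list were found at 2 of them (22.2%, against 45.8%). SLC22A4 and SLC22A5, neighbours on chromosome 5 that carry ergothioneine and carnitine, each had a start peak in every list. SLC22A4 had values of 55, 46 and 93 (ranks 93.8, 91.9 and 78.4), with a second peak about 1 kb downstream of the start in 786-O and Caki-1 replicate 1 (38 and 37). Caki-1 replicate 2 had a single peak of 2465 bp over the same stretch. SLC22A5 had 41, 36 and 146 (ranks 85.5, 83.5 and 89.9) at its start (132369467 to 132370169). SLC22A2, the cation carrier of the basolateral proximal tubule, had intragenic peaks of 27 and 19 in 786-O, 1 of 17 in Caki-1 replicate 1 and none in replicate 2. SLC47A1, the apical extruder of cations, had no peak in any list. SLC47A2 had a start peak in both Caki-1 lists (23 and 47) and SLC22A15 likewise (18 and 66). SLC22A3 had a faint end peak in Caki-1 replicate 2 (21) and an intragenic peak that overlapped in all 3 lists (25, 25 and 52). SLC22A16 had no peak at all.

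Of the remaining carriers, the lysosomal and vitamin transporters were marked. SLC5A6, the carrier of biotin and pantothenate, had values of 50, 37 and 191 (ranks 91.6, 84.6 and 94.4) on chromosome 2 (27211429 to 27212753), in a peak that also lies at the start of ATRAID. SLC17A5, the lysosomal sialic acid exporter, had values of 60, 21 and 38, at ranks of 95.4, 50.1 and 37.3. SLC17A9, the vesicular carrier of nucleotides, followed the same order with 75, 22 and 38 (ranks 98.0, 53.6 and 37.3). For both genes the 786-O rank stood above either Caki-1 rank by more than the Caki-1 ranks differed from each other. The vesicular glutamate carriers SLC17A6 and SLC17A8 had no peak and SLC17A7 only flanking ones, the strongest with values of 43, 35 and 106, and 2 further ones in Caki-1 replicate 1 (21 and 13). SLC5A5, the iodide carrier of the thyroid, and SLC5A7, the choline carrier of neurons, had no peak, SLC5A4 no start peak, and SLC5A3, the inositol carrier, had a start peak in both Caki-1 lists (27 and 40), shared with MRPS6. Of 4 members in no role list, SLC22A31 had a strong start peak in both Caki-1 lists (60 and 170, ranks 96.7 and 92.7) and SLC22A23 in 786-O only (44 and 20, at different starts). SLC22A14 had a start peak of 24 in Caki-1 replicate 2, which overlapped a 786-O peak of 13 that lay just over 1 kb from that start. SLC22A17 had an intragenic peak of 14 in 786-O.

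**Figure D4:**
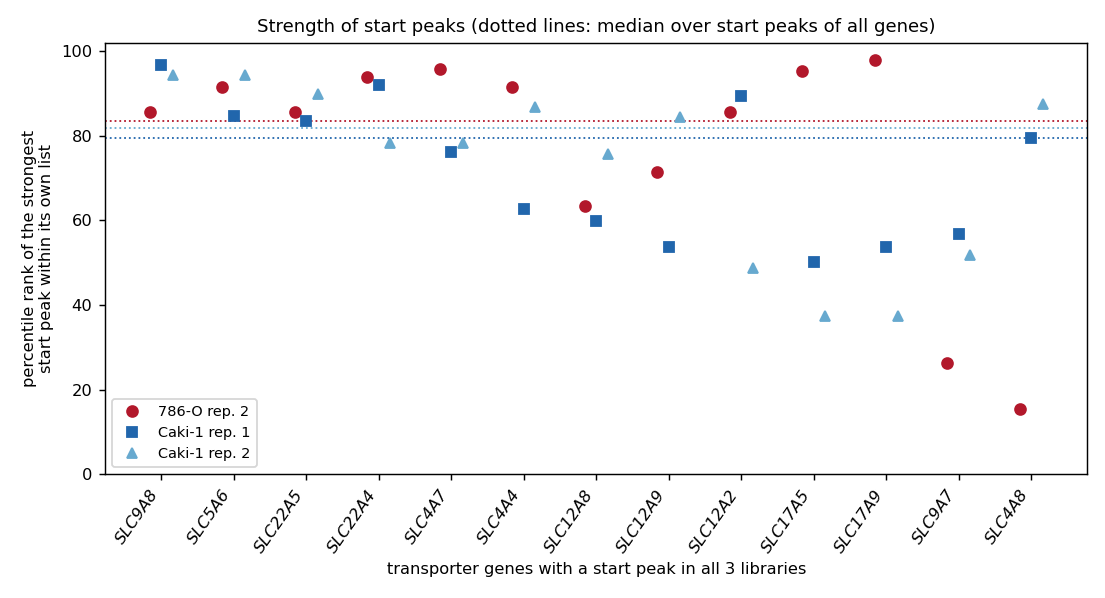
Percentile rank (y axis, 0 to 100) of the strongest start peak within its own list for 13 transporter genes with a start peak in all 3 libraries. Circles are 786-O and squares and triangles the Caki-1 replicates, and dotted lines mark the median over start peaks of all genes (83.6, 79.4 and 81.8). SLC9A8 to SLC22A4 lie near or above those lines in each library, while SLC17A5 and SLC17A9 are high in 786-O alone.

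Start peaks of members ranked higher than their other peaks in each list. The median rank of start peaks was 84.1 in 786-O, close to the 83.6 of start peaks over all genes. For Caki-1 it was 56.8 in replicate 1 (79.4 over all genes) and 58.6 in replicate 2 (81.8). Peaks away from the starts had median ranks of 48.2, 46.3 and 45.7. Start peaks had median widths of 613, 574 and 662 bp, and other member peaks 423, 453 and 528 bp. Summits of start peaks are known for the first 2 lists. Counted from the nearest start of members with a strand, with negative values upstream, the 18 summits of 786-O lay from -957 to 1049 bp (median -89.5). The 30 summits of Caki-1 replicate 1 lay from -1232 to 1045 bp (median -23.5). The members held 180, 155 and 164 distinct peaks, of which 13, 14 and 15 lay within 1 kb of the start of another protein-coding gene. The density was 2.83, 2.42 and 2.57 peaks per 100 kb of extended span, against 3.46, 3.4 and 3.79 over all protein-coding genes.

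The lines were compared by presence of a peak. In the extended span, 6 members had a peak in 786-O and in neither Caki-1 list (7.5%, against 5.43% of all genes). These were SLC5A1, SLC13A5, SLC22A8, SLC22A11, SLC22A13 and SLC22A17. The 3 members with a peak in both Caki-1 lists and none in 786-O (3.75%, against 4.93%) were SLC12A5, SLC13A1 and SLC22A7. At starts, 6 members were marked in 786-O only (7.5%, against 3.63%), namely SLC4A1, SLC13A3, SLC17A3, SLC22A11, SLC22A13 and SLC22A23. Of these 6, only SLC17A3 and SLC22A23 have a strand, and either end was counted for the other 4. Another 9 were marked in both Caki-1 lists only (11.2%, against 7.04%), namely SLC4A10, SLC5A3, SLC5A10, SLC12A4, SLC12A5, SLC22A15, SLC22A31, SLC34A2 and SLC47A2. The Caki-1 lists differed from each other in the extended span of 12 members, with 4 marked in replicate 1 only (5%, against 3.35%) and 8 in replicate 2 only (10%, against 5.69%). They differed at the starts of 9, with 3 members marked in replicate 1 only (3.75%, against 3.58%) and 6 in replicate 2 only (7.5%, against 5.86%). Leaving out a Caki-1 library moved the span counts from 6 up to 12 (without replicate 2) and from 3 up to 5 (without replicate 1), and the Caki-1 start count from 9 up to 14 (without replicate 1). The counts are not symmetric, since one asks for absence from 2 lists and the other for presence in 2. With 1 library of 786-O the smallest p between lines is 0.333, and no test was made.

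The lists also differed by chromosome. Chromosome 6, home to 11 members with SLC17A3 and SLC22A23 among them, held 6.55% of the peaks of 786-O against 3.24% and 3.25% of those of Caki-1. Chromosome 22, with SLC5A1 and SLC5A4, held 2.07% against 1.07% and 1.11%, and chromosome 14, with SLC22A17, 3.65% against 1.65% and 1.68%. The part of these chromosome differences in the presence of peaks at single genes was not tested.

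Peak positions at the members were also compared between lists. Of the 180 member peaks of 786-O, 33.9% (95% CI 27.0 to 41.3) overlapped a peak of Caki-1 replicate 1 and 37.2% (30.1 to 44.7) one of replicate 2, against 44.5% and 47.8% over all peaks of the list. Of the 155 member peaks of Caki-1 replicate 1, 59.4% (51.2 to 67.2) overlapped replicate 2 and 39.4% (31.6 to 47.5) overlapped 786-O, against 66.2% and 46% over all peaks. Of the 164 of Caki-1 replicate 2, 56.1% (48.1 to 63.8) overlapped replicate 1 and 40.9% (33.3 to 48.8) overlapped 786-O, against 58.8% and 43.9%. Away from starts, 37.5% (29.1 to 46.5) of its member peaks overlapped 786-O, against 37.4% over all peaks. At starts, 17 of the 28 peaks of 786-O (60.7%, CI 40.6 to 78.5) overlapped either Caki-1 list, against 82.8% and 85.0% of the start peaks of all genes. From Caki-1 replicate 1, 29 of 34 start peaks (85.3%, 68.9 to 95) recurred in replicate 2 and 17 in 786-O (50%, 32.4 to 67.6), against 90.4% and 77.7%. From replicate 2, 28 of 36 (77.8%, 60.8 to 89.9) recurred in replicate 1 and 19 in 786-O (52.8%, 35.5 to 69.6), against 86.1% and 75.9%. The intervals are exact binomial and cover counting error only.

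Of the 12 members with a promoter sequence and a start peak in all 3 lists, 9 had a CpG-rich promoter. The same held for 6384 of 7707 such protein-coding genes, a higher share. The promoter nearest the 5′ end was scored for each gene, while a peak at any annotated start was counted. A peak therefore need not lie at the promoter scored. SLC4A4, SLC4A8 and SLC12A9 had start peaks in all 3 lists only at starts downstream of their most upstream one. A promoter was called CpG-rich at an observed over expected CpG ratio of at least 0.6 and a GC content of at least 50%, over the 300 bases of the RefSeq window. Of the 63 members with a promoter sequence 24 were CpG-rich (38.1%), against 63.1% of all protein-coding promoters. Of those 24, 9 had a start peak in all 3 lists (37.5%, against 64.0% of all CpG-rich promoters), and of the 39 CpG-poor members 3 had one (7.69%, against 22.7%). Per list, the CpG-rich members with a start peak were 10 in 786-O (41.7%, against 71.6%), 16 in Caki-1 replicate 1 (66.7%, against 74.9%) and 17 in replicate 2 (70.8%, against 77.2%). CpG-poor members with one were 5 in 786-O (12.8%, against 30.3%) and 8 in each Caki-1 list (20.5%, against 32.1% and 34.2%). The median ratio was 0.788 over the 12 members marked in all 3 lists and 0.300 over the 33 marked in none, a contrast that all genes shared (0.845 and 0.360). CpG-rich members without a start peak in any list numbered 6 (25%, against 16.5%), SLC9A3 and SLC17A7 among them, and CpG-poor ones 27 (69.2%, against 58.1%).

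Short motifs were searched on both strands of the 300 bases of the 63 promoters. The HNF4 motif CAAAGTCCA was in SLC22A10 alone (0.304% of all). ACGTG, the core of the hypoxia response element, was in 8 members (12.7%, against 23.7% of all), and the E-box CACGTG, which contains it, in 4 of them (6.35%, against 8.82%).

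**Figure D5:**
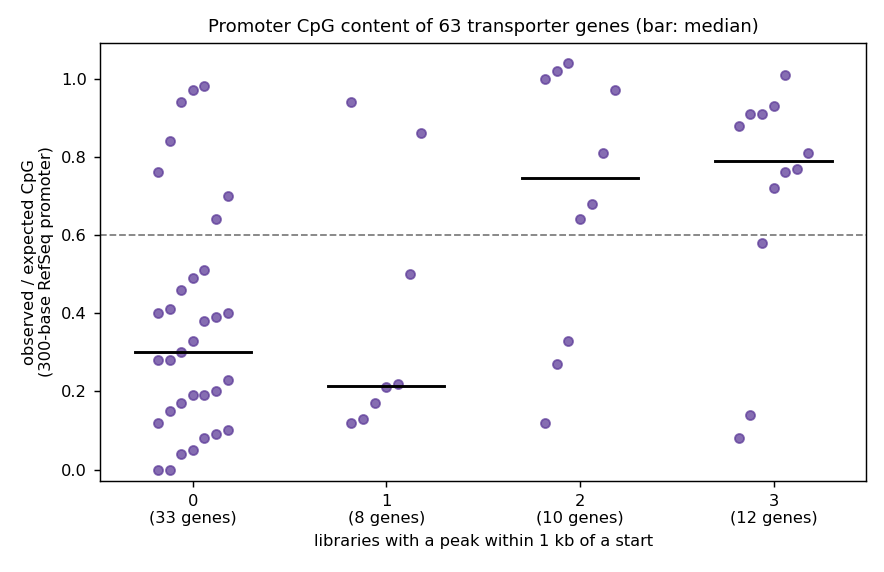
The y axis gives observed over expected CpG of the 300-base RefSeq promoter nearest the 5′ end, for 63 transporter genes. Genes are grouped by the number of libraries with a peak within 1 kb of any annotated start (x axis). Points are genes, bars medians, and the dashed line the ratio of 0.6. The median is 0.300 with no marked library and 0.788 with 3, against 0.360 and 0.845 over all genes.

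Genes that work beside these carriers had start peaks that ranged from strong to weak. Their list holds 40 regulators, channels, pumps and other carriers of tubular transport. In the extended span, 31 of the 40 had a peak in all 3 lists (77.5%, against 65.4% of all genes). A start peak in all 3 was less frequent than among all genes, at 15 of the 40 (37.5%, against 45.8%). CUL3, the ubiquitin ligase scaffold that limits the WNK kinases, had values of 98, 81 and 357 at its start, and its ranks of 99.5, 99.1 and 99.2 were the highest of these 40 genes in each list. WNK1, the kinase that governs cation-chloride cotransport, had 74, 43 and 125, and its target kinase OXSR1 had 67, 35 and 141. ATP1B1, a subunit of the sodium pump, had 51, 48 and 159. CA2, the cytosolic carbonic anhydrase, had 64, 36 and 197, and PDZK1IP1, a small membrane protein that partners the glucose carrier SLC5A2, had 73, 57 and 97. NHERF1, a scaffold that holds phosphate and proton carriers at the apical membrane, had a start peak in both Caki-1 lists (62 and 126) and no peak in 786-O. UMOD, the urinary glycoprotein of the thick ascending limb, had no peak in any list, and AQP1 and PTH1R had peaks in 786-O only, none of them at a start.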

How the data were processed

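The analysis used 3 deposited peak lists of H4K12la CUT&Tag, 1 per library, from 786-O (replicate 2) and Caki-1 (replicates 1 and 2). Tools listed in the submitters' processing notes are Bowtie2, deepTools and fastp (0.19.6), and the genome is hg38 (GRCh38), with no step named for any of them. No source used here gives the peak caller, threshold, control or depth. Column 6 of the deposited lists was read, from its values, as the authors' summit signal in 786-O and Caki-1 replicate 1 and as the authors' score in Caki-1 replicate 2, where column 5 gives no summit for most peaks. Both were used only as percentile ranks within a list, with ties at their mean.

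Genes and starts came from RefSeq tables of GRCh38.p14, with a strand for 63 of 80 members. Peaks were assigned to gene spans extended by 5 kb and to windows of 1 kb on each side of a start. Peaks sharing 1 bp or more counted as overlapping, with 95% exact binomial intervals (Python 3.11.15, pandas 2.3.3, scipy 1.17.1). The assignment was tested on simulated peaks at known genes. The Caki-1 replicates are not labelled as separate cultures, so their spread may be technical. Alternatives were other window sizes, peaks of rank 50 or above in each list, an overlap of 50%, leaving out either Caki-1 library, peaks near other genes and gene length. The members, gene lists and alternatives were chosen with earlier results of these data known. Values were given for the 12 members with the highest lowest rank at their starts, the textbook carriers, members marked in 1 line and the members with most peaks, and the other members were named with their peaks after these were seen. Some genes, 4 of them members, are counted but not reported singly here. With 3 libraries no test between lines was made.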

Additional observations from a re-analysis of the deposited data

How the results depend on the processing

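The 42 members with a peak in the extended span in all 3 lists became 33 with no extension and 46 with 10 kb, 36 without peaks at an end of another gene, and 26 with peaks of rank 50 or above in each list, where 52.0% of all genes had one and 32.5% of members did. By length the 42 divide into 9 genes under 20 kb, 12 of 20 to 60 kb and 21 over 60 kb. The 16 members with a start peak in all 3 became 10 at rank 50 or above (12.5%, against 37.9% of all genes). With the same peaks, the 9 members with a start peak only in Caki-1 became 4. Restricted to members with a strand, an alternative chosen after seeing the data, the 6 with a start peak only in 786-O became 2 (SLC17A3 and SLC22A23). Leaving out either Caki-1 library moved the 42 to between 45 and 48 and the 16 to between 16 and 17. It moved the members marked only in 786-O from 6 to between 9 and 12 in the span (12 without replicate 2) and from 6 to between 6 and 7 at starts. It moved those marked only in Caki-1 from 3 to between 4 and 5 in the span (5 without replicate 1) and from 9 to between 12 and 14 at starts (14 without replicate 1). Averaged over the Caki-1 lists, 35.6% of the 786-O member peaks were shared, 53.1% at rank 50 or above in the 786-O list and 30% at an overlap of 50%, between 33.9% and 37.2% without 1 replicate. The ratio of member peaks in 786-O to the mean of Caki-1 was 1.13 (1.1 to 1.17 without 1 replicate). 5 of 8 role lists lay below all genes in the span, with 5 to 6 over the alternatives. The median rank of the strongest peak per member in 786-O was 69.7 in the span and 85.5 at starts. In Caki-1 it went the other way, from 74.3 to 58.3 in replicate 1 and from 65.3 to 60.9 in replicate 2. The 31 of 40 other transport genes became 15 at starts. By the counting rules, leaving out a Caki-1 list can only keep or raise these counts of members. Stricter peaks or windows can only keep or lower the counts in all 3 lists. The cause of the other shifts was not tested. No paired analysis was possible because the lines share only replicate number 2 and no test was made.

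The lists give no depth, 786-O has 1 library, and separate cultures are not stated for the Caki-1 replicates. A peak in a gene span may belong to a neighbour or to an unannotated element, and 17 members have no strand in the tables used here. Presence depends on each list's own threshold.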

Other observations

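Of the 11 members with a peak in the extended span of all 3 lists and none at a start in any list, 5 had a 786-O peak that overlapped a peak in both Caki-1 lists. These were SLC4A9, SLC13A2, SLC13A4, SLC17A7 and SLC34A1. SLC9A3, SLC4A5, SLC5A11 and SLC9A5 were among the other 6, and in SLC9A3 and SLC5A11 no peak overlapped between the Caki-1 lists. SLC34A1 had a further intragenic peak on chromosome 5 (177389476 to 177390202) with a value of 33 in 786-O, where a peak of 32 in each Caki-1 list overlapped it, although those of Caki-1 did not overlap each other. Another lay in its downstream flank in 786-O (33) and Caki-1 replicate 2 (73), and both overlapped a peak of Caki-1 replicate 1 that lay outside the 5 kb window. SLC17A7, a vesicular glutamate carrier with a CpG-rich promoter, had a peak of 1145 bp in 786-O just over 1 kb upstream of its start, which in Caki-1 replicate 1 was called as peaks of 403 and 308 bp and in replicate 2 as 1 peak of 1089 bp. SLC9A4, an exchanger known from the stomach, had an intragenic peak in both Caki-1 lists (34 and 119, ranks 80.8 and 85.2) and none there in 786-O. SLC9A5 had flanking and intragenic peaks in every list, and none of those of 786-O overlapped one of Caki-1.

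SLC4A7 held a flanking peak near the start of NEK10 with values of 19, 32 and 226 (ranks 40.3, 77.8 and 96.4), beside 61, 31 and 93 (ranks 95.7, 76.2 and 78.4) at its own start. The order was thus reversed between 786-O and Caki-1 replicate 2. SLC22A23 held 7 peaks in 786-O, none in Caki-1 replicate 1 and 3 in replicate 2, and 6 of the 7 overlapped no Caki-1 peak.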
